A study of Mus musculus with 94 samples.

Results

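Genes of Wnt signaling were followed in brain after the DNA-damaging agent methylazoxymethanol (MAM). The 34 genes are known members of the pathway and were chosen with earlier results of these data known, so their counts describe this choice. All their probe sets that name a single gene were taken, 100 of the 34958 such probe sets on the array, which cover 18194 genes. Each gene's brightest probe set, the one with the highest mean level over the arrays, gave its main value. Expression was measured on 94 Affymetrix Mouse Genome 430 2.0 arrays, 1 per animal, of tissue from the right side of the brain of 11-week-old male C57BL6 mice. Mgmt-/- mice lack O6-methylguanine DNA methyltransferase (Mgmt), the enzyme that removes alkyl groups from guanine, and wt mice carry it. Each genotype received a single intraperitoneal injection of MAM at 20 mg/kg or of vehicle, which was dilute acetic acid in saline, and was examined 6, 24, 48 or 168 hr later. The 16 groups (Mgmt-/- MAM, Mgmt-/- vehicle, wt MAM and wt vehicle at each time) held 6 animals, except 5 in wt vehicle at 48 hr, in wt MAM at 168 hr and, as used here, in Mgmt-/- MAM at 168 hr. Each array holds RNA of many brain regions together, so fewer cells of a type and less RNA per cell cannot be told apart.

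Wnt proteins are secreted ligands that bind Frizzled receptors and the co-receptors Lrp5 and Lrp6. Without a ligand, a destruction complex built on Axin and Apc phosphorylates beta-catenin (Ctnnb1) and marks it for degradation. With a ligand, Dishevelled proteins halt that complex, and beta-catenin enters the nucleus and joins Tcf and Lef factors at target genes such as Axin2 and Ccnd1. In the adult brain the pathway is known for its part in neurogenesis, in synapses, in blood vessel barriers and, through Tcf7l2, in neurons of the thalamus.

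Tcf and Lef factors bind sites of the form CTTTG followed by A or T at both of the next bases. These letters were searched on both strands of RefSeq promoters of GRCm38.p6 (250 bases before to 50 after the start). At least 1 match was held by 16.9% of all 32851 promoters. The table of promoters lists 20 of the 34 genes, with 27 promoters. Of these 3 held a match, those of Fzd7, Lef1 and an internal start of Tcf7l2. The stretches below show the 150 bases before the start of Jup and of Tcf7l2, whose main values were the only ones of the 34 called below, and of Fzd7, one of the promoters with a match. Capitals mark a match, on the strand shown or on the other one.
Jup, chr11:100397791-100397940, minus strand: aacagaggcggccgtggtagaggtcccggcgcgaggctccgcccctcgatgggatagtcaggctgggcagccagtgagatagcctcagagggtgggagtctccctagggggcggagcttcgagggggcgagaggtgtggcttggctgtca
Tcf7l2, first start, chr19:55741660-55741809, plus strand: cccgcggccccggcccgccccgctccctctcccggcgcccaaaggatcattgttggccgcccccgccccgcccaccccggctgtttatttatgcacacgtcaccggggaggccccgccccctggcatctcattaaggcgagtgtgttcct
Tcf7l2, internal start, chr19:55895171-55895320, plus strand: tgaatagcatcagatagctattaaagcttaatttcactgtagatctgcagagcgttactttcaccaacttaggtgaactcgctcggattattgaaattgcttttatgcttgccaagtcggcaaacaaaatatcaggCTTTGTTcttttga
Fzd7, chr1:59481997-59482146, plus strand: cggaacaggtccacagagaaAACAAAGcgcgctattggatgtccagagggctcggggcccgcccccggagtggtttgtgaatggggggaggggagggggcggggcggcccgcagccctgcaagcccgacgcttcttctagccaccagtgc
The Jup and first Tcf7l2 stretches hold no match, the internal Tcf7l2 start has CTTTGTT and Fzd7 has the same letters on the other strand. A match describes letters and is neither a bound site nor a cause.

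Levels are RMA values on the log2 scale, where 1 unit is a doubling of signal. A level also depends on how well a probe set's probes bind, so levels are not compared between genes. Brain identity was clear on 93 of the 94 arrays, where the mean of 5 neuron markers lay between 11.6 and 12.3 and that of 10 liver markers between 5.28 and 7.66. Animals are named by the number in their labels after the letter A. Animal A343 (Mgmt-/- MAM, 168 hr) had a liver mean of 13.2 and was left out. The arrays of animals A707 (wt vehicle, 24 hr) and A727 (wt MAM, 6 hr) were more alike than any other pair, although they belong to different groups. Over all probe sets their r was 0.99917 and the SD of their difference 0.0905, against 0.99767 and 0.151 for the next pair. Both were kept, and values without them are given where a call was lost without them. The animal numbers fall in 2 sets, taken to be the 2 laboratories of the study. A probe set was tested at a time only where the laboratories showed no sign of differing effects (p above 0.15), with p values adjusted over all those tested. It is termed called here below an adjusted p of 0.05 (limma) with a change of more than 1.3-fold, and a gene counts as called through any single probe set. The members hold 100 probe sets for 34 genes, against 34958 for all 18194 genes, and so have more chances of a call per gene. Their counts by any probe set are therefore not strictly comparable with the share of all genes. Of the 34 genes, 24, 26, 33 and 27 had a tested probe set at 6, 24, 48 and 168 hr, and 13, 15, 26 and 19 their brightest one.

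In Mgmt-/- brain MAM raised Jup and lowered 1 probe set each of Ctnnb1, Dixdc1 and Ccnd2 at 6 hr, and lowered 1 probe set each of Tbl1xr1 and Lrp6 at 48 hr. No member was called at 24 or 168 hr, where 6 of 44 and 9 of 60 tested member probe sets had an unadjusted p under 0.05 (limma). The counts at 6, 24, 48 and 168 hr were 4, 0, 2 and 0 of the tested members, while 2.9, 1.06, 0.827 and 0.853% of all tested genes were called. Jup was the 1 call on a brightest probe set among 73 tests of such sets over the times, where 0.621% of all brightest probe sets were called. The median difference of the 34 main values was 0.07, 0.06, 0.01 and -0.01 at 6, 24, 48 and 168 hr, against 0.02, 0.02, 0.01 and -0.01 over all genes. At these times 30, 31, 33 and 34 of the 34 lay within 0.25 of 0.

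**Figure D1:**
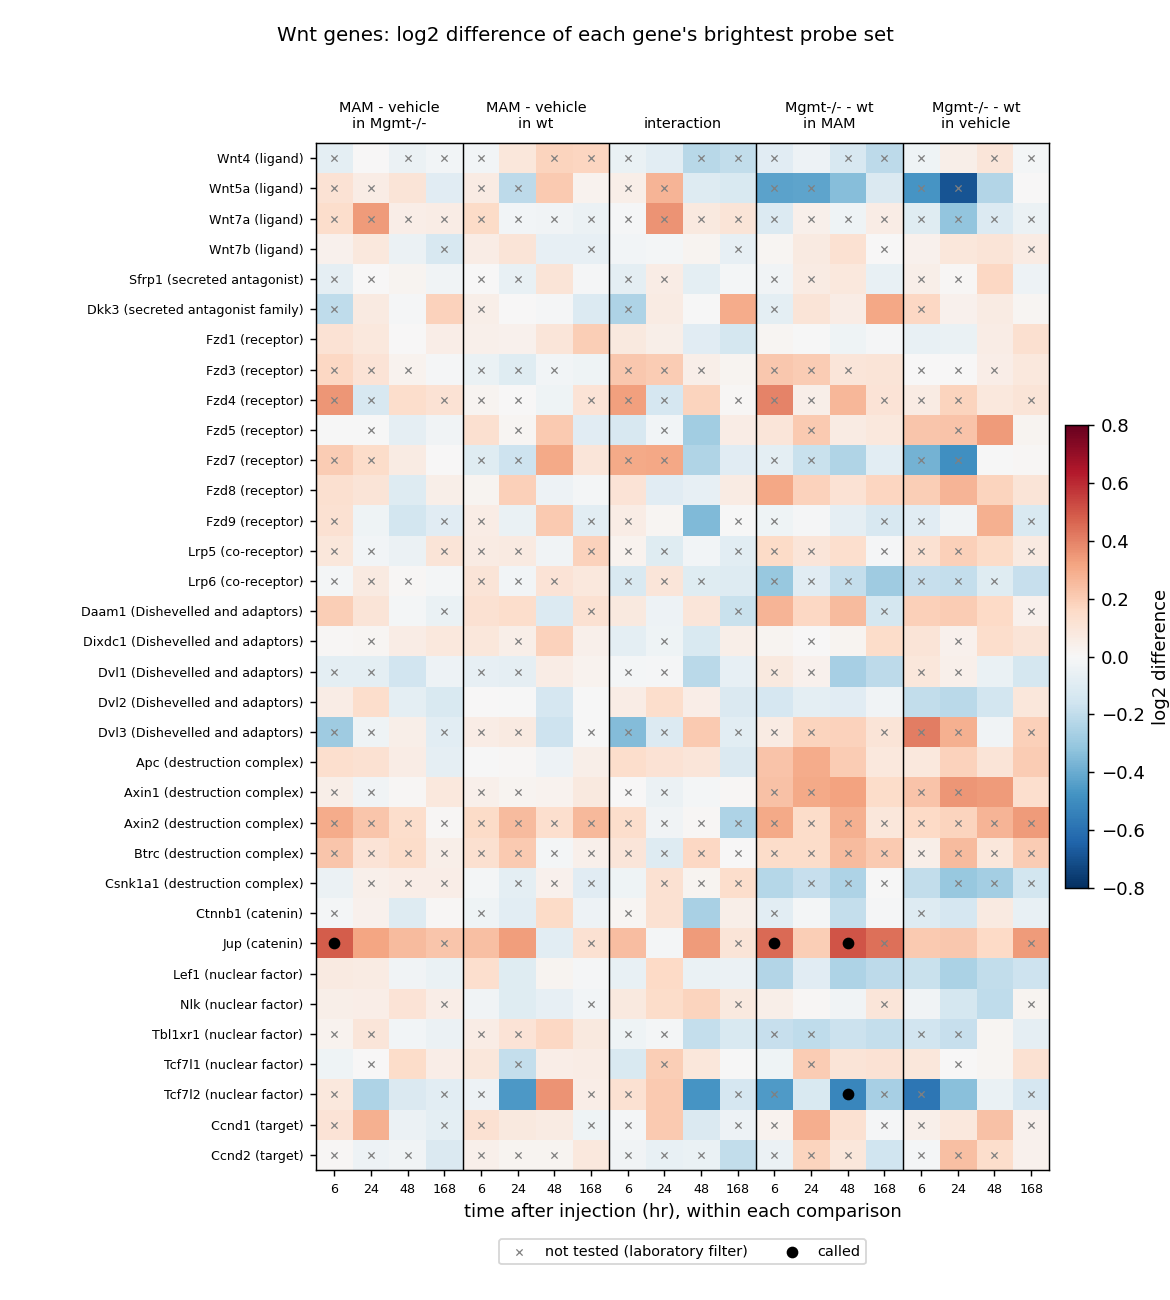
Log2 difference of the brightest probe set of each of the 34 Wnt genes (rows, grouped by role) at 6, 24, 48 and 168 hr in 5 comparisons (columns); dots mark called values and crosses values that were not tested. Jup is called at 6 hr after MAM in Mgmt-/- brain, and Jup at 6 and 48 hr and Tcf7l2 at 48 hr between Mgmt-/- and wt brain after MAM.

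Jup encodes plakoglobin (gamma-catenin), the close relative of beta-catenin found in desmosomes and adherens junctions. At 6 hr Jup (1426873_s_at, its only probe set) had its lowest, median and highest level at 7.60, 7.76 and 8.12 in Mgmt-/- MAM brain, 7.09, 7.27 and 7.61 in Mgmt-/- vehicle brain, 6.97, 7.35 and 7.59 in wt MAM brain, and 6.97, 7.07 and 7.26 in wt vehicle brain. The lowest Mgmt-/- MAM animal was level with the highest Mgmt-/- vehicle animal and above every wt animal. MAM raised Jup by 0.49 ± 0.095 (SE) in Mgmt-/- brain (adjusted p = 0.00337, limma), with 0.38 in number set 1 and 0.59 in set 2. In wt brain the difference was 0.24 (95% interval 0.04 to 0.45, adjusted p = 0.867), and the interaction was not called. At 24 hr Jup read 7.51, 7.65 and 8.02 in Mgmt-/- MAM, 7.02, 7.33 and 7.82 in Mgmt-/- vehicle, 7.11, 7.34 and 8.40 in wt MAM, and 6.93, 7.19 and 7.32 in wt vehicle brain. The Mgmt-/- MAM group was again the highest by its median, and it overlapped Mgmt-/- vehicle and wt MAM. Averaged over the 4 times in a fit of all arrays, MAM raised Jup by 0.32 in Mgmt-/- brain (adjusted p = 0.000154, limma), under the fold threshold.

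Ctnnb1 encodes beta-catenin. Its probe set 1430533_a_at read 8.70, 8.80 and 8.98 (lowest, median, highest) in Mgmt-/- MAM brain at 6 hr, 9.01, 9.29 and 9.62 in Mgmt-/- vehicle brain, 8.88, 9.44 and 9.61 in wt MAM brain, and 9.0, 9.36 and 9.73 in wt vehicle brain. All 6 Mgmt-/- MAM animals lay below all 6 Mgmt-/- vehicle animals, and the difference was -0.46 ± 0.111 (SE, adjusted p = 0.0148, limma). The brightest probe set of Ctnnb1, 1420811_a_at, showed no such difference, with 12.16, 12.31 and 12.34 in Mgmt-/- MAM brain and 12.11, 12.30 and 12.44 in Mgmt-/- vehicle brain, and its 16 group means spanned 0.193, the smallest range among the 34 main values. The third one, 1450008_a_at, is brighter than the called set and was removed by the laboratory filter. It averaged 10.04 ± 0.155 in Mgmt-/- MAM brain and 10.38 ± 0.168 in Mgmt-/- vehicle brain (SD, n = 6 each), which overlapped, a difference of -0.34 (limma without the filter, adjusted p = 0.0123), under the fold threshold. Without animals A707 and A727 the differences of Jup and of Ctnnb1 1430533_a_at in Mgmt-/- brain stayed at 0.49 and -0.46, but neither passed the laboratory filter, so neither was tested. The same held for their differences between Mgmt-/- and wt brain after MAM at 6 hr, 0.40 for Jup and -0.49 for Ctnnb1 without both animals. The filter also removed that Ctnnb1 probe set in 6 of 24 fits that each left out 1 animal.

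**Figure D2:**
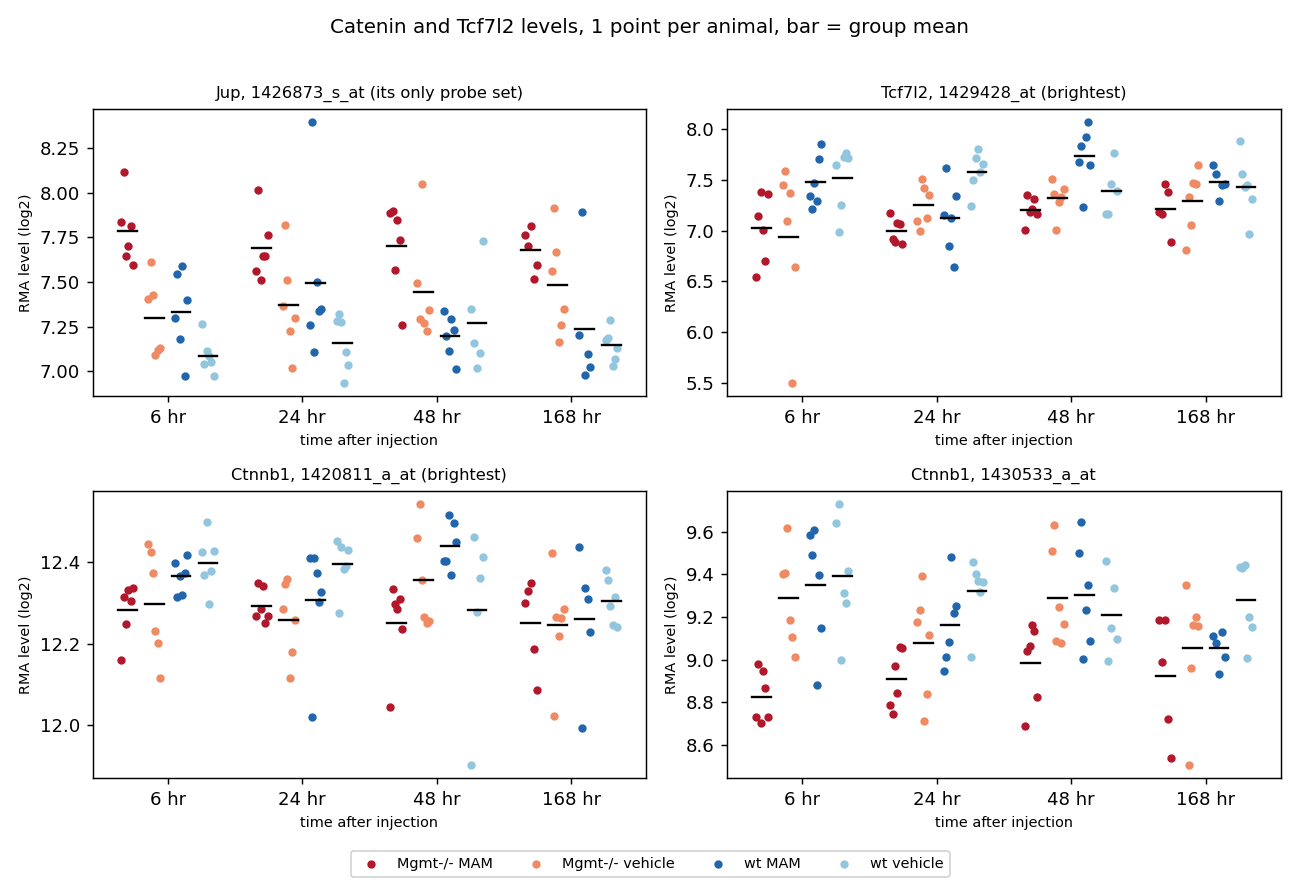
RMA level (log2) of each animal (points, with the group mean as a line) for catenin and Tcf7l2 probe sets at each time, by group. Jup at 6 hr has a median of 7.76 in Mgmt-/- MAM brain, against 7.27 in Mgmt-/- vehicle brain, and Tcf7l2 at 48 hr has 7.20 in Mgmt-/- MAM brain, against 7.75 in wt MAM brain.

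The other calls at 6 hr were Dixdc1, a protein with a DIX domain that binds Dishevelled and Axin, and Ccnd2, a cyclin of the G1 phase and a Wnt target. Dixdc1 (1443957_at) read 5.39, 5.67 and 5.94 in Mgmt-/- MAM brain and 6.00, 6.26 and 6.57 in Mgmt-/- vehicle brain, with no overlap, and fell by 0.61 (adjusted p = 0.00401, limma). Ccnd2 (1430127_a_at) read 7.50, 7.91 and 8.04 in Mgmt-/- MAM brain and 7.94, 8.29 and 8.44 in Mgmt-/- vehicle brain, which overlapped, and fell by 0.43 (adjusted p = 0.0183, limma). Its fold change dropped under 1.3 without animal A325 of the Mgmt-/- MAM group (-0.37). The brightest probe sets of both genes had nearly equal medians, 9.64 in Mgmt-/- MAM and 9.66 in Mgmt-/- vehicle brain for Dixdc1 (1435207_at), and 8.70 and 8.64 in the same order for Ccnd2 (1416122_at). Another Dixdc1 set, 1444395_at, is brighter than the called one and was not called. It read 6.39, 7.20 and 7.34 in Mgmt-/- MAM and 7.03, 7.31 and 7.65 in Mgmt-/- vehicle brain, which overlapped. In wt MAM brain it read 7.53, 7.87 and 7.92, above all Mgmt-/- MAM animals.

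Tbl1xr1, a subunit of the NCoR and SMRT corepressor complexes that takes part in switching beta-catenin targets on, fell at 48 hr on 1442312_at. It read 3.94, 4.39 and 4.57 in Mgmt-/- MAM brain, 4.84, 5.09 and 5.4 in Mgmt-/- vehicle brain, 5.52, 6.09 and 6.45 in wt MAM brain, and 4.33, 5.03, 5.25, 5.44 and 5.57 in the 5 wt vehicle animals. The Mgmt-/- groups did not overlap, and the difference was -0.81 ± 0.158 (SE, adjusted p = 0.0129, limma, and 0.05004 without vehicle animal A917). Lrp6, which together with Frizzled receives Wnt ligands, read 5.52, 5.77 and 6.02 on 1451022_at in Mgmt-/- MAM brain and 5.84, 6.38 and 6.59 in Mgmt-/- vehicle brain, which overlapped, and fell by 0.53 (adjusted p = 0.0265, limma). That call was lost without any 1 of 6 animals (A339, A341 and A963 of Mgmt-/- MAM, and A913, A915 and A917 of Mgmt-/- vehicle, adjusted p up to 0.0789). Neither gene's brightest probe set followed: 1434839_s_at of Tbl1xr1 had medians of 8.61 in Mgmt-/- MAM and 8.57 in Mgmt-/- vehicle brain, and 1428500_at of Lrp6 had 7.63 in both.

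Both genes also showed a MAM effect that differed between the genotypes at 48 hr. They were the only members called for this interaction, 0, 0, 2 and 0 at 6, 24, 48 and 168 hr, where 0.217, 0.0772, 1.69 and 0.126% of all tested genes were. No brightest probe set was among them (0 of 73, against 0.233% of all). Of the 44, 44, 66 and 60 tested member probe sets of any kind, 4, 1, 16 and 4 had an unadjusted p under 0.05 (limma). For Tbl1xr1 the interaction, the MAM effect in Mgmt-/- brain minus that in wt brain, was -1.67 ± 0.230 (SE, adjusted p = 0.000484, limma) on 1442312_at and -0.74 (adjusted p = 0.0365) on 1422761_at. The second was lost when any 1 of 12 animals was left out (adjusted p up to 0.0881). For Lrp6 it was -0.89 ± 0.165 (SE, adjusted p = 0.00883, limma), and the levels in wt brain were 5.69, 5.88 and 6.24 after MAM and 5.43, 5.53, 5.60, 5.61 and 5.69 after vehicle. The medians of Lrp6 and Tbl1xr1 were thus higher after MAM than after vehicle in wt brain, and lower in Mgmt-/- brain.

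**Figure D3:**
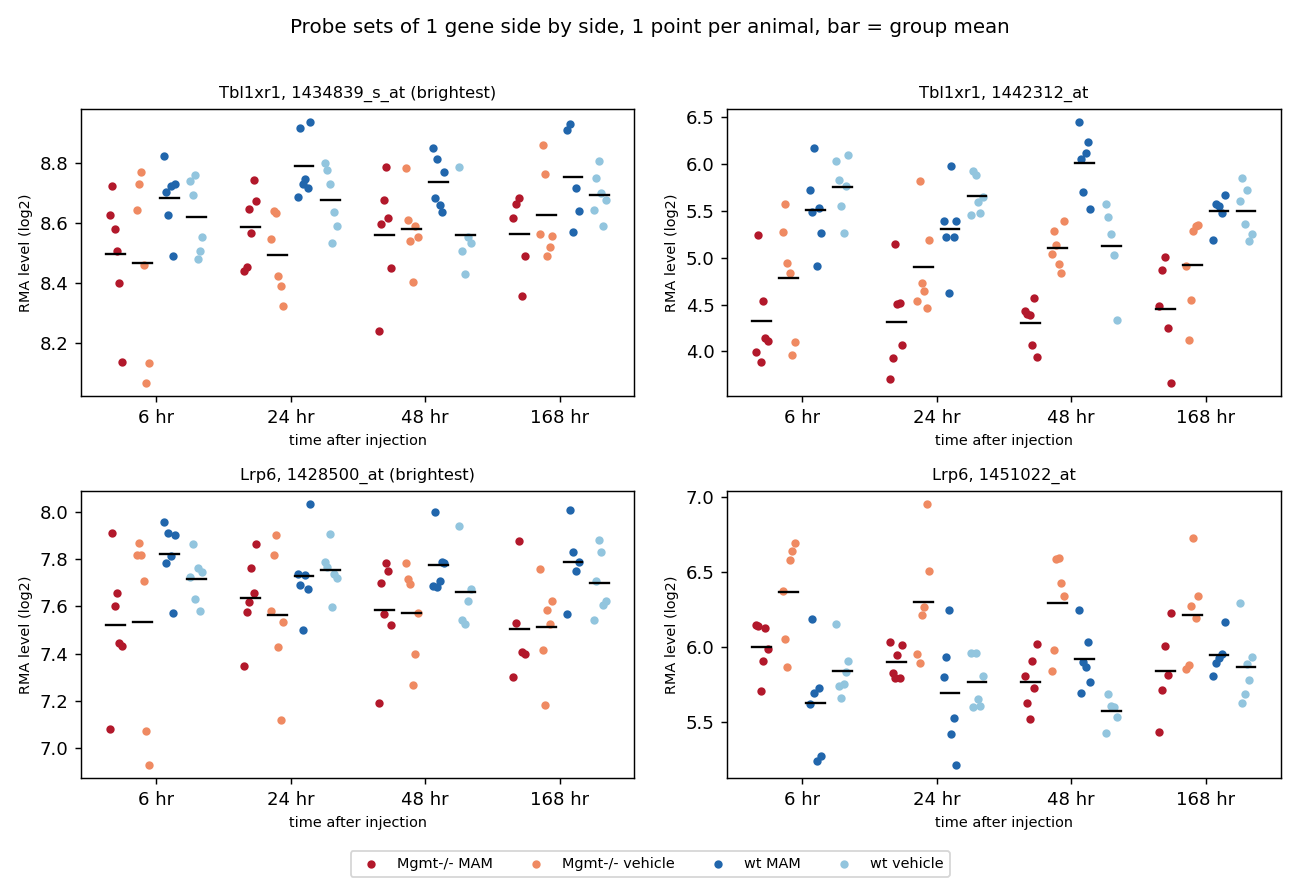
RMA level (log2) of each animal (points, with the group mean as a line) for the called and the brightest probe sets of Tbl1xr1 and Lrp6 at each time, by group. At 48 hr Tbl1xr1 1442312_at has medians of 4.39 in Mgmt-/- MAM, 5.09 in Mgmt-/- vehicle and 6.09 in wt MAM brain. The brightest probe sets of both genes are nearly level between Mgmt-/- MAM and Mgmt-/- vehicle brain. Between Mgmt-/- and wt brain after MAM, the brightest Tbl1xr1 set differs by -0.17 (SE 0.083) and was not called.

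Fewer than 3 members were called by any probe set for the interaction, so the 3 with the smallest p on brightest probe sets are given. They were Tcf7l2 at 48 hr with -0.47 (95% interval -0.79 to -0.15, adjusted p = 0.144, limma), Dkk3, a divergent member of the Dickkopf family of secreted proteins, at 168 hr with 0.30 (0.03 to 0.56, adjusted p = 0.642), and Ctnnb1 at 48 hr with -0.26 (-0.51 to -0.01, adjusted p = 0.272). Dkk3 (1417312_at) read 9.50, 9.54, 9.70, 9.80 and 9.81 in Mgmt-/- MAM brain, 9.36, 9.43 and 9.88 (lowest, median, highest) in Mgmt-/- vehicle brain, 9.06, 9.33, 9.36, 9.42 and 9.63 in wt MAM brain, and 9.36, 9.45 and 9.76 in wt vehicle brain. The 4 groups overlapped, and none of the 3 differences passed the test.

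In wt brain no member was called after MAM at any time (0 of the tested genes, with 0% of all genes at 6, 24, 48 and 168 hr by any probe set, and 0% by the brightest). At an unadjusted p under 0.05 (limma), 3, 7, 13 and 0 of the 44, 44, 66 and 60 tested member probe sets differed, and the ordinary linear model also called 0. The smallest p values on brightest probe sets belonged to Tcf7l2 at 24 hr, Jup at 6 hr (above) and Fzd7, a Frizzled receptor, at 48 hr. Tcf7l2, the transcription factor that carries beta-catenin to DNA, read 6.64, 7.14 and 7.62 in wt MAM brain and 7.24, 7.61 and 7.80 in wt vehicle brain at 24 hr, which overlapped, with a difference of -0.46 (95% interval -0.72 to -0.19, adjusted p = 0.390, limma). Fzd7 (1450044_at) read 6.47, 6.84 and 6.95 in wt MAM brain at 48 hr and 6.28, 6.35, 6.47, 6.59 and 6.78 in wt vehicle brain, a difference of 0.30 (0.04 to 0.56, adjusted p = 0.268). The medians of the 34 main values were 0.05, 0.01, 0.03 and 0.03, against 0.04, 0.01, 0.004 and -0.01 over all genes.

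Axin2 and Ccnd1, which beta-catenin induces, were looked at as readouts of the pathway. The target Ccnd2 (above) was not called higher at 6 hr in Mgmt-/- brain, with -0.43 on 1430127_a_at and 0.0076 on its brightest probe set. Its set 1448229_s_at averaged 7.01 in Mgmt-/- MAM and 6.81 in Mgmt-/- vehicle brain, which overlapped. The means of its remaining sets were level or lower after MAM. Axin2 (1436845_at), a scaffold of the destruction complex and a feedback inhibitor, read 7.19, 7.48 and 7.64 in Mgmt-/- MAM brain at 6 hr and 6.79, 7.15 and 7.36 in Mgmt-/- vehicle brain, with 7.0, 7.07 and 7.40 in wt MAM and 6.84, 6.93 and 7.16 in wt vehicle brain. The difference in Mgmt-/- brain was 0.30, but the laboratory filter removed this probe set, and without the filter its adjusted p was 0.118 (limma). Ccnd1, cyclin D1, read 8.64, 8.70 and 8.79 in Mgmt-/- MAM brain at 24 hr on 1448698_at, 8.27, 8.41 and 8.54 in Mgmt-/- vehicle brain, 8.14, 8.46 and 8.63 in wt MAM brain, and 8.14, 8.35 and 8.49 in wt vehicle brain. All 6 Mgmt-/- MAM animals stood above every other animal of that time, with a difference from Mgmt-/- vehicle of 0.29 (95% interval 0.12 to 0.45, adjusted p = 0.0840, limma), which did not pass the test. Another Ccnd1 probe set, 1417419_at, had nearly equal medians in Mgmt-/- MAM and Mgmt-/- vehicle brain at 24 hr (levels below). Averaged over the times, Axin2 rose by 0.17 in Mgmt-/- brain (adjusted p = 0.0443), again under the fold threshold.

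**Figure D4:**
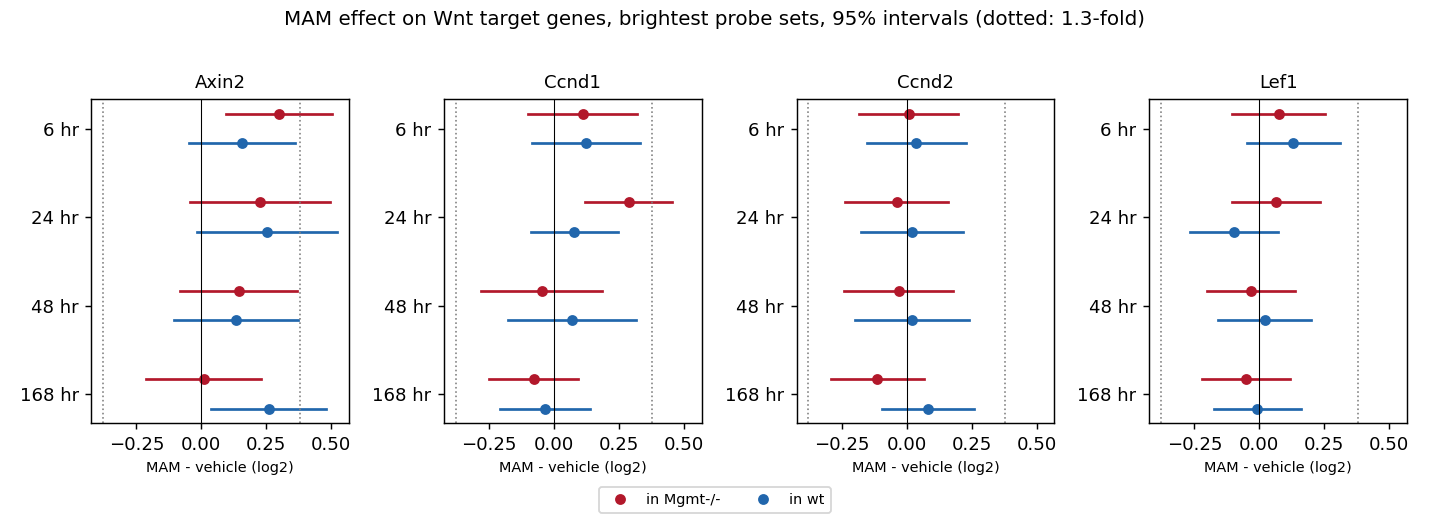
MAM minus vehicle (log2, points with 95% intervals) for brightest probe sets of Wnt target genes at each time, Mgmt-/- above wt; dotted lines mark a 1.3-fold change. For Ccnd1 at 24 hr the interval in Mgmt-/- brain runs between 0.12 and 0.45, and none of the values shown was called.

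Mgmt-/- and wt brain differed already after vehicle, on probe sets that were not the brightest of their genes. At 6, 24, 48 and 168 hr 2, 3, 2 and 0 members were called, 5 genes in all, where 5.4, 6.43, 5.28 and 0.159% of all tested genes were. None of the 73 brightest probe sets was, against 1.83% of all. Of the 44, 44, 66 and 60 tested member probe sets of any kind, 18, 16, 15 and 8 had an unadjusted p under 0.05 (limma). The share of all probe sets at that unadjusted p is not given here. Ccnd2 (1416124_at, with a low mean level of 3.83) read 3.56, 3.74 and 3.85 in Mgmt-/- vehicle brain at 6 hr and 3.90, 4.18 and 4.23 in wt vehicle brain, with no overlap. The difference was -0.40 (-0.37 without animal A905, under the fold threshold), and -0.54 at 24 hr. Its set 1416123_at went the opposite way at 6 hr, averaging 4.96 in Mgmt-/- vehicle and 4.37 in wt vehicle brain. The brightest Ccnd2 set differed by -0.016 at 6 hr and 0.24 at 24 hr. Tbl1xr1 (1442312_at) read 3.96, 4.89 and 5.58 in Mgmt-/- vehicle brain at 6 hr and 5.26, 5.80 and 6.10 in wt vehicle brain, a difference of -0.97. At 24 hr its difference was -0.76 (adjusted p = 0.0428, limma), and this call was lost without any 1 of 11 animals, A707 among them (adjusted p up to 0.116, limma, and -0.78 with 0.0726 without A707 and A727).

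Tcf7l2 (1429427_s_at) read 5.61, 5.87 and 6.09 in Mgmt-/- vehicle brain at 24 hr and 5.88, 6.43 and 6.90 in wt vehicle brain, and was lower by genotype (-0.57, adjusted p = 0.0189, limma, and 0.0622 without animal A707), a call also lost without A909. Lrp6 (1451022_at) went the other way at 48 hr, where every Mgmt-/- vehicle animal (5.84 or more) stood above every wt vehicle animal (5.69 or less), a difference of 0.74 (adjusted p = 0.000604, limma). Nlk, the nemo-like kinase that phosphorylates Tcf and Lef factors, read 7.64, 8.21 and 8.34 in Mgmt-/- vehicle brain on 1456467_s_at and 8.25, 8.49, 8.60, 8.66 and 8.80 in wt vehicle brain, a difference of -0.49 (adjusted p = 0.0418, limma). That last call was lost without any 1 of 9 animals (adjusted p up to 0.137).

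In the fit of all arrays, the genotypes after vehicle, averaged over the times, differed on 1 probe set each of 7 members, where 7.32% of all genes were called. Daam1, Tbl1xr1, Sfrp1, Tcf7l2 and Apc were lower in Mgmt-/- brain (-0.70, -0.58, -0.41, -0.41 and -0.39), and Lrp6 and Ccnd2 (1416123_at) higher (0.53 and 0.43). The Ccnd2 probe sets went opposite ways, with -0.34 on 1416124_at (adjusted p = 4.64e-07, limma), under the fold threshold. Daam1 is a formin that Dishevelled binds in the planar polarity branch, Sfrp1 a secreted protein that captures Wnt ligands, and Apc a scaffold of the destruction complex. The brightest probe sets moved less, and none was called. Of them 17 of 34 had an adjusted p under 0.05 (32.2% of all brightest sets did). Their largest differences were those of the ligand Wnt5a (-0.35), Tcf7l2 (-0.28), the scaffolds Axin1 (0.26) and Axin2 (0.23), casein kinase Csnk1a1 (-0.23) and Jup (0.23), all under the fold threshold. For 3 of the 7 called genes, Apc, Daam1 and Lrp6, the brightest probe set moved the opposite way (0.14, 0.15 and -0.16).

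After MAM the genotypes differed at more members, 7, 4, 6 and 2 at 6, 24, 48 and 168 hr, where 10.1, 7.95, 14.8 and 2.7% of all tested genes were called, 11 genes in all. Only 3 of the 73 brightest probe sets were called, Jup at 6 and 48 hr and Tcf7l2 at 48 hr, against 4.65% of all brightest sets. At 48 hr Jup read 7.26, 7.79 and 7.90 in Mgmt-/- MAM brain and 7.01, 7.22 and 7.34 in wt MAM brain, which overlapped, a difference of 0.50 (adjusted p = 0.00775, limma). Tcf7l2 (1429428_at) read 7.01, 7.20 and 7.35 in Mgmt-/- MAM brain and 7.23, 7.75 and 8.07 in wt MAM brain, and 7.0, 7.35 and 7.50 in Mgmt-/- vehicle and 7.16, 7.17, 7.39, 7.46 and 7.77 in wt vehicle brain. It differed by -0.52 between the genotypes after MAM (adjusted p = 0.00116, limma), and its second probe set 1429427_s_at by -0.75. Tcf7l2 also had the widest spread of group means among the main values, 0.789, with the lowest mean in Mgmt-/- vehicle brain at 6 hr (6.94) and the highest in wt MAM brain at 48 hr (7.73).

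The widest differences after MAM, Tbl1xr1 and Apc, were at 48 hr, on probe sets whose mean level was low. Of the 43 called probe-set results over all comparisons, 30 lay on probe sets with a mean level under 6. Tbl1xr1 had Mgmt-/- MAM minus wt MAM differences of -1.71 on 1442312_at (adjusted p = 4.07e-08, limma), -0.84 on 1422761_at and -0.83 on 1450739_at, with no overlap on any of the 3. Apc (1420957_at) read 3.75, 4.00 and 4.30 in Mgmt-/- MAM brain and 4.15, 5.60 and 6.13 in wt MAM brain, a difference of -1.28. Sfrp1 (1460187_at) read 4.29, 4.38 and 4.86 in Mgmt-/- MAM brain and 4.62, 5.37 and 5.47 in wt MAM brain, a difference of -0.71. Both pairs of groups overlapped, and the brightest probe sets of Tbl1xr1, Apc and Sfrp1 were not called.

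At 6 hr the calls after MAM were, beside Jup, Dixdc1 (-0.90), Ccnd2 (-0.74 on 1430127_a_at and -0.56 on 1416124_at), Ctnnb1 (-0.53 on 1430533_a_at), Tbl1xr1 (-1.19, -0.51 and -0.51 on 3 probe sets) and Tcf7l2 (-0.40 on 1425229_a_at). Csnk1a1, the kinase that primes beta-catenin for degradation, was higher (0.57 on 1437923_at), while its brightest probe set was lower (1424827_a_at, -0.23, adjusted p = 0.00448, limma), under the fold threshold and with no overlap. On 1437923_at Csnk1a1 read 5.68, 6.18 and 6.98 in Mgmt-/- MAM brain and 5.4, 5.62 and 6.16 in wt MAM brain, which overlapped. This probe set also differed between the number sets (0.50, set 2 minus set 1), the 1 member called for that comparison, where 0.94% of genes were. At 24 hr Axin1 (1426967_at) was higher in Mgmt-/- MAM brain (5.86, 6.00 and 6.17, against 5.22, 5.60 and 6.06 in wt MAM brain, a difference of 0.42), and the groups overlapped. Lef1 (1421299_a_at), a partner of beta-catenin on DNA, was lower (3.94, 4.01 and 4.05, against 4.14, 4.29 and 4.94 in wt MAM brain, a difference of -0.38), with no overlap. Also lower at 24 hr were Ccnd2 (-0.67 on 1416124_at and -0.40 on 1430127_a_at) and Tbl1xr1 (-0.99), and at 168 hr Tbl1xr1 (-0.52 on 1450739_at) and Ccnd2 (-0.43 on 1430127_a_at). The brightest Ccnd2 set (1416122_at) differed by -0.05, 0.18, 0.09 and -0.16 at 6, 24, 48 and 168 hr. Leaving out single animals ended the calls of Tcf7l2 at 6 hr (any 1 of 5, adjusted p = 0.115 without A727, limma), Lef1 (A133, A331, A731 or A955), Axin1 (A735), Ccnd2 1430127_a_at at 24 hr (A333 or A735) and at 168 hr (any 1 of 6).

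The remaining members were called in none of these 20 comparisons. They were the ligands Wnt4, Wnt5a, Wnt7a and Wnt7b, Dkk3, the Frizzled receptors Fzd1, Fzd3, Fzd4, Fzd5, Fzd7, Fzd8 and Fzd9, the co-receptor Lrp5, the Dishevelled proteins Dvl1, Dvl2 and Dvl3, Daam1, Axin2, Btrc (a ubiquitin ligase subunit that recognises phosphorylated beta-catenin), Tcf7l1 and Ccnd1. Several of their probe sets were removed by the laboratory filter. Without that filter Fzd4, the receptor of brain vessels, was called at 6 hr after MAM between Mgmt-/- and wt brain (0.40). It read 6.49, 6.60 and 6.75 in Mgmt-/- MAM brain, above all other animals of that time, which ranged between 5.97 and 6.39. Daam1 (1431035_at) was then called in both genotype comparisons, with -1.29 at 48 hr after MAM. There it read 4.38, 4.92 and 5.13 in Mgmt-/- MAM brain, 5.06, 5.28 and 5.59 in Mgmt-/- vehicle brain, 5.83, 6.22 and 6.42 in wt MAM brain and 5.51, 5.54, 5.59, 5.75 and 5.77 in wt vehicle brain. Wnt5a, a ligand best known for beta-catenin-independent signaling, was then called at 24 hr after vehicle (-0.69), with 4.19, 4.81 and 5.56 in Mgmt-/- vehicle brain and 5.36, 5.55 and 5.86 in wt vehicle brain. Ccnd1 was then called at 24 hr on 1417419_at, not its brightest set, with 0.56 after MAM and 0.46 after vehicle between Mgmt-/- and wt brain. This set read 7.22, 7.51 and 7.71 in Mgmt-/- MAM, 7.34, 7.49 and 7.70 in Mgmt-/- vehicle, 6.51, 6.96 and 7.37 in wt MAM, and 6.79, 7.07 and 7.27 in wt vehicle brain. Fzd7 was called after vehicle at 24 hr (-0.49, 5.61, 6.41 and 6.81 in Mgmt-/- vehicle and 6.55, 6.87 and 7.03 in wt vehicle brain), with overlap. Over all members the filter's removal raised the sums of calls over the times to 17 after vehicle and 31 after MAM, against 7 and 19. The sums for the other Wnt genes described below rose likewise, to 56 and 85, against 28 and 45. The share of all genes called without the filter is not given here, so the rise cannot be read as particular to these members.

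Averaged over the times, MAM in Mgmt-/- brain changed 1 probe set each of 4 of the 34 genes, where 2.09% of all genes were called. They were Apc (-0.58), Tbl1xr1 (-0.58), Lrp6 (-0.42) and Dixdc1 (-0.39). None was the brightest set of its gene, and 0 brightest sets of members were called. In wt brain the averaged MAM effect was called for 0 members and 0% of genes, with 9 member probe sets at an unadjusted p under 0.05 (limma). Vehicle brain changed little with time. At 24, 48 and 168 hr against 6 hr 0 members were called, with 2, 9 and 16 probe sets at an unadjusted p under 0.05, where 0.0055, 0.115 and 0.407% of all genes were called (limma). Ccnd1 (0.32, adjusted p = 0.0142) and Daam1 (0.24, adjusted p = 0.00700) were higher at 168 than at 6 hr on their brightest probe sets, under the fold threshold.

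Of the 100 probe sets, 18 were called in any of the 20 comparisons, and only 2 of them were the brightest of their gene (Jup and Tcf7l2 1429428_at). Where a secondary probe set was called, the brightest of the same gene had a median difference of -0.16 after MAM between the genotypes, against -0.56 on the called set (23 calls, same sign in 16). The medians were -0.15 against -0.55 after vehicle (8 calls, 6 the same sign), 0.01 against -0.53 for MAM in Mgmt-/- brain (5 calls, 2 the same sign) and -0.19 against -0.89 for the interaction (3 calls, 3 the same sign). Among called probe sets of all genes with several, 25.4, 24.1, 25 and 17.8% were brightest for MAM in Mgmt-/- brain, genotype after vehicle, genotype after MAM and interaction, against 0 of 5, 0 of 8, 1 of 24 and 0 of 3 among the members. Called sets had been selected for large differences, so some gap is built in. Across the 93 arrays, after group means and number set were taken out, 66 secondary probe sets had a median correlation of 0.136 with the brightest set of their gene, 7 above 0.5 and 19 below 0.

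**Figure D5:**
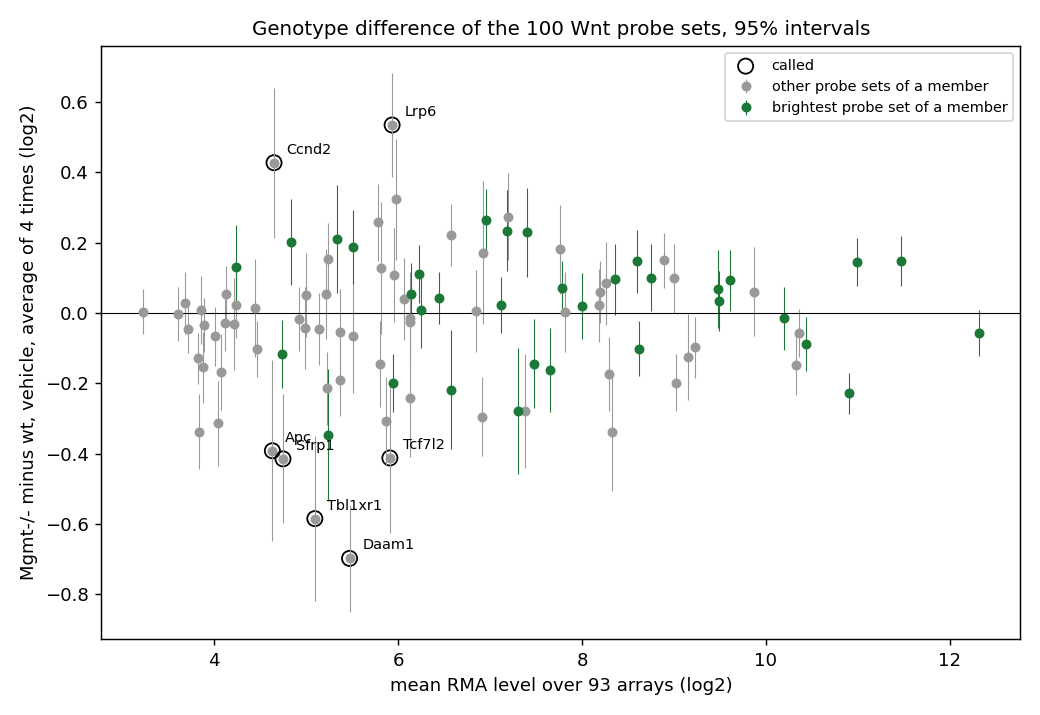
Mgmt-/- minus wt in vehicle brain, averaged over the 4 times (log2, points with 95% intervals), for the 100 member probe sets against their mean RMA level over 93 arrays, with the brightest of each gene apart and called sets ringed. The 7 called sets are all secondary ones, between -0.70 (Daam1) and 0.53 (Lrp6).

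Other measures moved together with these groups. The RNA 3'/5' index, by how much the control probes at the 3' end of Gapdh and of beta-actin outshine those at the 5' end, rises where RNA is more degraded. It was higher after MAM in Mgmt-/- brain by 0.199, 0.146 and 0.117 at 6, 24 and 48 hr (exact permutation within number sets, two-sided, p = 0.005, 0.005 and 0.01) and differed by -0.0365 at 168 hr (p = 0.675). In wt brain it differed by 0.0643, 0.063, 0.0006 and 0.0627 (exact p = 0.125, 0.02, 0.99 and 0.015). The index also differed between the genotypes. After MAM it averaged 0.633, 0.627, 0.540 and 0.520 in Mgmt-/- brain at 6, 24, 48 and 168 hr, and 0.378, 0.390, 0.331 and 0.442 in wt brain (exact p = 0.005, 0.005, 0.005 and 0.0333, within number sets, two-sided). After vehicle it averaged 0.434, 0.481, 0.423 and 0.552 in Mgmt-/- brain, and 0.313, 0.327, 0.330 and 0.372 in wt brain (exact p = 0.005, 0.005, 0.025 and 0.02), and 0.005 is the smallest p that 400 permutations can give. All Mgmt-/- animals lay above all wt animals at 6, 24 and 48 hr after MAM and at 6 and 24 hr after vehicle. With the index as a covariate 10 of the 43 called probe-set results stayed called, among them the Tbl1xr1 1442312_at and Lrp6 interactions. None of the 6 MAM calls in Mgmt-/- brain did. Of these, Dixdc1 (-0.68), Lrp6 (-0.57) and Tbl1xr1 (-0.86) were at least as large as without it, while Jup (0.37), Ctnnb1 (-0.18) and Ccnd2 (-0.23) were smaller, with adjusted p between 0.159 and 0.757 (limma). Of all 43, 18 were at least as large, and 2 results changed sign, Jup between genotypes after MAM at 48 hr (-0.07) and Tbl1xr1 1450739_at at 6 hr (0.06). Its part in these results was not tested beyond that covariate.

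The mean of 10 liver markers was 6.34 (5.71 to 7.47) in Mgmt-/- MAM brain at 6 hr, 5.64 (5.28 to 6.14) in Mgmt-/- vehicle, 5.70 (5.36 to 6.71) in wt MAM and 6.06 (5.66 to 6.47) in wt vehicle brain. All 10 were above Mgmt-/- vehicle, 1 of them called. At 24 hr it was 6.29 (5.63 to 7.01) in Mgmt-/- MAM brain, against 5.60 (5.35 to 5.90) in wt MAM brain, with 9 of 10 markers higher and 4 called, in the comparison that called Axin1, Lef1, Ccnd2 and Tbl1xr1. At 6 hr animal A329 had the highest liver mean of Mgmt-/- MAM brain (7.47), and without it the Jup difference was 0.53 (adjusted p = 0.00289, limma). Animal A949 of the same group still had 6.72, above every Mgmt-/- vehicle animal, so that fit cannot separate Jup from the liver markers. At 48 hr, where Tbl1xr1, Apc and Tcf7l2 differed most, the mean of 6 cerebellum markers was 9.86 (9.62 to 9.98) in Mgmt-/- MAM, 10.02 in Mgmt-/- vehicle, 10.20 in wt MAM and 10.14 in wt vehicle brain. All 6 were lower in Mgmt-/- MAM than in wt MAM brain, 1 of them called. The mean of 5 microglia markers was 8.10 (7.65 to 8.33) in Mgmt-/- MAM brain, against 8.45 (8.26 to 8.57) in wt MAM brain, 4 of them lower and 2 called. Of 6 endothelial markers 4 were lower, 1 of them called. Of 7 thalamus markers 3 were higher in Mgmt-/- MAM than in wt MAM brain, with a median difference of -0.049 and 1 of the 7 called. The part of these lists in the results was not tested.

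Of 117 other Wnt pathway genes listed, 112 were measured, and 66, 71, 104 and 98 had a tested probe set at 6, 24, 48 and 168 hr. After MAM 2, 0, 1 and 2 were called in Mgmt-/- brain, where 2.9, 1.06, 0.827 and 0.853% of all tested genes were. In wt brain 0 were called at any time, with 0% of all genes. At 6 hr the receptor Fzd2 (0.64) and the formin Daam2 (0.58) were higher. At 48 hr 1 probe set of Gsk3b, the kinase of the destruction complex, was lower (-0.60), and at 168 hr Fzd2 was higher (0.42) and Wls, the carrier that Wnt ligands need for secretion, lower (-0.43). The interaction was called for Gsk3b (-1.14) and Prox1 (-0.79) at 48 hr and for none at the other times. Of all tested genes 0.217, 0.0772, 1.69 and 0.126% were called for it at 6, 24, 48 and 168 hr. Between genotypes 7, 7, 14 and 0 were called after vehicle, where 5.4, 6.43, 5.28 and 0.159% of all tested genes were. After MAM 12, 7, 21 and 5 were called between genotypes, where 10.1, 7.95, 14.8 and 2.7% of all tested genes were. After vehicle the largest at 6 hr were the small GTPase Rhoa (-0.80), Jun (-0.63), the corepressors Tle4 (-0.62) and Tle3 (-0.54), the cadherin Celsr3 (0.59) and the kinase Csnk1g1 (0.45). They were Tle4 (-1.04) and the planar polarity gene Vangl2 (-0.65) at 24 hr, and Apc2 (0.97), Rhoa (-0.90) and the kinase Mapk8 (-0.84) at 48 hr. After MAM they were Tle4 (-0.997), Gsk3b (0.99) and Rhoa (-0.76) at 6 hr, and Tle4 (-1.07), Ror1 (0.67) and the secreted antagonist Frzb (-0.61) at 24 hr. Later they were Mapk8 (-1.52), Rhoa (-1.02) and Tle4 (-0.84) at 48 hr, and the antagonist Apcdd1 (-0.61) at 168 hr. Of these, Gsk3b had opposite signs at 6 and 48 hr, on different probe sets. Tle3 also had calls of both signs on different probe sets. After vehicle it was lower at 6 hr (-0.54) and higher at 24 hr (0.48). At 24 hr after MAM its called probe sets went both ways between genotypes (-0.45 and 0.38).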

How the data were processed

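Expression was measured on 94 arrays labelled brain, 1 per animal, of which 93 were used (A343 held liver markers). The authors computed log2 values by RMA (background correction, quantile normalization, median polish; affy, version not given in the sources used here), and these deposited log2 values were used unchanged. The file holds 45101 probe sets, of which 34958 name 1 gene. No depth applies to arrays, and their number limits precision.

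With R 4.3.3, limma 3.58.1 and the data.table package 1.17.8, every time was modelled separately by group means plus number set. Probe sets were tested where the 3 laboratory interactions jointly had p above 0.15. P values were adjusted by Benjamini-Hochberg per time and contrast over all tested probe sets and called at 0.05 and a fold above 1.3. These thresholds are the study's; the moderated test replaces its ordinary one. A second fit, of 93 arrays with 16 group means and number set, had no laboratory filter. Genes were named by rule: members called in any comparison, and the 3 smallest p values on brightest probe sets where fewer than 3 were called. Other members are given by counts, other Wnt genes by up to 6 called per comparison. The members and lists were chosen with earlier results of these data known. Replicates are separate animals. The calculation was tested on simulated data first. Alternatives tried were no laboratory filter, no fold threshold, a minimum mean level of 6, the RNA index as covariate, cyclic loess, array weights, the ordinary linear model, each number set alone, the mean of a gene's probe sets, animal A343 kept, each animal left out and, chosen after seeing the data, animals A707 and A727 left out. Promoter sequences are RefSeq's (GRCm38.p6).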

Additional observations from a re-analysis of the deposited data

Results flagged for a closer look

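Single animals stood apart from the rest of their group in 5 of the 93 groups of main and called values examined, by the ratio of the gap to the nearest animal over the whole range; chance gives about 1 in 20. Ctnnb1 (1420811_a_at) was lowest in animal A337 of Mgmt-/- MAM at 48 hr (12.05, nearest 12.24, ratio 0.662). Dkk3 (1417312_at) was highest in animal A319 of Mgmt-/- vehicle at 168 hr (9.88, nearest 9.52, ratio 0.686) and in animal A123 of wt vehicle at 168 hr (9.76, nearest 9.51, ratio 0.626), whose array also has the highest liver marker mean of those kept (7.66). Fzd7 (1450044_at) was lowest in animal A139 of wt MAM at 48 hr (6.47, nearest 6.80, ratio 0.681). Ccnd2 (1416124_at) was lowest in animal A105 of wt vehicle at 6 hr (3.90, nearest 4.13, ratio 0.705).

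The MAM effect differed between Mgmt-/- and wt brain at 48 hr by the interaction test (limma) for Tbl1xr1 (-1.67 on 1442312_at and -0.74 on 1422761_at) and for Lrp6 (-0.89 on 1451022_at).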

How the results depend on the processing

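Counts are sums over the 4 times. MAM in Mgmt-/- brain (6 calls) had 0 with the RNA index as covariate and 4 to 7 without single animals. It had 24 in number set 2 alone and 1 in set 1 alone, which was Btrc at 24 hr and not among the 6. MAM in wt brain (0) had 1 with cyclic loess (Tbl1xr1, 48 hr), 2 with array weights (Tcf7l2, 24 hr, and Tbl1xr1, 48 hr), 4 in set 2 alone and 0 to 1 without single animals. The interaction (2) had 4 without the laboratory filter, 0 in set 1, 5 in set 2 and 1 to 3 without single animals. With a mean level of at least 6 it had 1, which was Dixdc1 at 6 hr and neither Tbl1xr1 nor Lrp6. Genotype after vehicle (7) had 17 without the laboratory filter, 13 without the fold threshold, 1 with a mean level of at least 6, 4 in set 1, 40 in set 2 and 5 to 9 without single animals. Those in set 1 were Daam1 at 6, 24 and 168 hr and Tbl1xr1 at 168 hr, which were not among the 7. Genotype after MAM (19) had 31, 35 and 8 under the same first 3 settings, 6 with the index, 48 in set 2 and 16 to 22 without single animals. The number sets alone were run without the laboratory filter. Without animals A707 and A727 the counts were 4, 0, 2, 6 and 16 in the same order of comparisons.

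In the fit of all arrays, lifting the fold threshold gave 2 members at 168 against 6 hr (0 before), 14 between number sets (1), 15 for MAM in Mgmt-/- brain (4) and 26 for genotype after vehicle (7). A mean level of at least 6 gave 0, 1 and 0 for the last 3, and the index gave 0 for MAM in Mgmt-/- brain. Signs turned with the index for Tbl1xr1 1450739_at at 6 hr (0.0594) and Jup at 48 hr (-0.0657), both between genotypes after MAM, and with animal A343 kept for the Dkk3 interaction at 168 hr (-0.3818). The cause was not tested. Of the 43 called probe-set results, 30 held in each tested fit without a single animal and 13 were lost in at least 1. Fits in which the laboratory filter removed the probe set are not among those tested, such as 6 of 24 for Ctnnb1 1430533_a_at at 6 hr. The 30 were therefore not all called in every such fit. The many calls on dim probe sets limit precision. No paired analysis was possible because each animal number occurs once, so that groups share no replicate number.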
